A study of Mus musculus with 44 samples.

Results

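The choroid plexus is the epithelium inside the brain ventricles that secretes cerebrospinal fluid. The genes described here are 10 genes named for this epithelium (Ttr, Kl, Folr1, Aqp1, Clic6, Kcnj13, Otx2, Prlr, Enpp2 and Slc4a5). They were found by their Ensembl identifiers among the 54446 genes of the count table, and all 10 are listed there. Whole brain RNA was sequenced from 28 male C57BL/6 mice in 4 groups, and every library is a bulk sample of one brain. At 12 months of age 5 mice ate the control diet (CD) and 7 ate the ketogenic diet (KD, high in fat and very low in carbohydrate) for one week. At 26 months 8 mice had eaten CD and 8 a cyclic KD (one week of KD, then one of CD, in turn) from 12 months of age, and the tissue was taken in a CD week. No genotype other than the strain was given. The comparisons are the one-week KD (12-month KD against CD), aging (26-month CD against 12-month CD) and the one-year KD (26-month KD against CD), the study's name for a feeding period that by these ages was longer than a year.

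Choroid plexus epithelial cells move water and ions from blood to the ventricle, and tight junctions between them form the barrier between blood and cerebrospinal fluid. They also secrete carrier proteins and hormone-like proteins into the fluid and take up folate for the brain. The tissue is a small part of the whole brain, so in a bulk library a few of its genes stand for it. In such libraries fewer choroid plexus cells and less RNA per cell cannot be told apart.

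Promoters of the genes that vary together are shown because they differ widely in base composition. RefSeq (GRCm38.p6) gave the 250 bases before 11 start sites of 6 of the 10 genes. No entry was matched for Ttr, Folr1, Clic6 and Enpp2. In the 3 promoters below, printed 5′ to 3′ on the strand of the gene, capitals mark every CG pair. Kl (chr5:150952357-150952606, plus strand) and Aqp1 (chr6:55336049-55336298, plus strand) overlap no gene, and Kcnj13 (chr1:87394730-87394979, minus strand) lies in an intron of Gigyf2.
Kl: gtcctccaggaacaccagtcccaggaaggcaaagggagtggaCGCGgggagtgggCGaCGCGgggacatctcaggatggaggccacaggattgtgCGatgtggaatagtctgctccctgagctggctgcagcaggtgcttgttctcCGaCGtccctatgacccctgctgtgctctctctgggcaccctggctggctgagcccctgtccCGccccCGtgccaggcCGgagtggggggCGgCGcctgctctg
Aqp1: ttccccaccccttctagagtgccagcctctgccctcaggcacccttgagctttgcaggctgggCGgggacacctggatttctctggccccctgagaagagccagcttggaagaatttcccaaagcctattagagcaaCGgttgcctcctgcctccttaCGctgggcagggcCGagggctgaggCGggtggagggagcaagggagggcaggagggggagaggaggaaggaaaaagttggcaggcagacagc
Kcnj13: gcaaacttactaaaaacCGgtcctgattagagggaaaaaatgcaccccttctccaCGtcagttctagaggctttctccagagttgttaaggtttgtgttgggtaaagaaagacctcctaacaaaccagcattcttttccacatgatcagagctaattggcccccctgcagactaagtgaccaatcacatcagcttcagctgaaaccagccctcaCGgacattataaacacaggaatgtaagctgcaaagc

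The Kl promoter holds 13 CG pairs and is 66.8% G and C. The Aqp1 promoter holds 5 CG pairs at 62.0%, and the Kcnj13 promoter 3 at 45.2%. Over all 32851 mouse promoters of the same length the median is 6 CG pairs and 52.4%. The letters TATAAA, or TTTATA on the other strand, are in 12.4% of all promoters and in 3 of the 11 of these genes. In Kcnj13 they are at position -29, counted from the start site, and can be read in the sequence above. In the first Otx2 start they are at position -192 and in Slc4a5 at -127. The core letters of a site for OTX proteins, TAATCC or GGATTA, are in 6.25% of all promoters and in 1 of the 11, the third start of Otx2 itself, at position -211. These matches describe letters only. Their part in the values below was not tested.

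The libraries held 7447742 to 12744415 counts. No pair of libraries in a group was identical. The predicted gene Gm10800 took a median of 0.00104% of counts in 12-month CD brains and 0.00102% in 12-month KD brains, against 0.203% and 0.258% in the 26-month CD and KD brains. It exceeded 0.5% in 1 26-month CD and 3 26-month KD brains. Of 32 further choroid plexus epithelial genes listed as a check of the tissue, 31 are in the table and 29 passed the filter on low counts. Their summed level was 236 to 625.3 CPM (counts per 1000000 counts of a library) over the 28 brains. Of the defining genes among them, the potassium channel subunit Kcne2 was at 0.180 to 7.62 CPM and the claudin Cldn2 at 0 to 7.91 CPM. The RNA of the epithelium was therefore scarce in some libraries. The sum shows this less, since abundant genes such as Vat1l (median 92.4 CPM) are a large part of it. In 12-month KD replicate 2, with Ttr at 1.71 CPM, it was still 310.5 CPM.

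The 10 genes lie on 8 chromosomes of GRCm38 and are all protein coding in GENCODE vM21. Ttr (ENSMUSG00000061808) is at chromosome 18, 20665280 to 20674321. Enpp2 (ENSMUSG00000022425) is at chromosome 15, 54838901 to 54952892, and Prlr (ENSMUSG00000005268) is on the same chromosome, 10177238 to 10349180. Kl (ENSMUSG00000058488) is at chromosome 5, 150952607 to 150993817. Aqp1 (ENSMUSG00000004655) is at chromosome 6, 55336432 to 55348555, and Slc4a5 (ENSMUSG00000068323) is also on chromosome 6, 83219828 to 83304945. Folr1 (ENSMUSG00000001827) is at chromosome 7, 101858331 to 101870788. Clic6 (ENSMUSG00000022949) is at chromosome 16, 92485736 to 92541243. Otx2 (ENSMUSG00000021848) is at chromosome 14, 48657677 to 48673819. Kcnj13 (ENSMUSG00000079436) is at chromosome 1, 87386363 to 87394729, and its whole span lies inside Gigyf2 on the other strand. Of the exon bases of Kcnj13, 49.1% also belong to Gigyf2. Whether the counting used strand is not given in the sources used here, so reads of Kcnj13 and Gigyf2 may not be fully separated. Smaller shares of exon bases overlap other genes for Enpp2 (5.97%), Otx2 (3.65% and 3.98%) and Prlr (1.32%).

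The level of the 10 genes differed widely between them and, for each gene, from brain to brain (see the plot of CPM by group). Per kilobase of exon, Ttr had the highest median over the 28 brains, 197 CPM per kb, and Enpp2 followed with 62.1. Clic6 (3.10), Kcnj13 (2.48), Kl (2.34), Otx2 (1.63) and Prlr (1.16) were in the middle. Slc4a5 (0.851), Folr1 (0.633) and Aqp1 (0.624) were lowest. In the 12-month CD brains Ttr reached 307 ± 110 CPM per kb and Enpp2 84.2 ± 22.1 (SD, n = 5). In the 12-month KD brains the SD of Ttr was above its mean (214 ± 238, n = 7). The order of Ttr and Enpp2 per kb differed between these brains. Enpp2 was the higher in replicates 2, 11 and 14 and Ttr in the others. Within the 12-month CD brains the ranges of mean ± SD overlapped for Clic6 (4.93 ± 1.91), Kl (4.45 ± 1.98) and Kcnj13 (3.81 ± 0.880). The same was true of Otx2 (1.85 ± 0.525), Prlr (1.67 ± 1.01), Folr1 (1.36 ± 0.608), Aqp1 (1.18 ± 0.721) and Slc4a5 (1.13 ± 0.455).

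**Figure D1:**
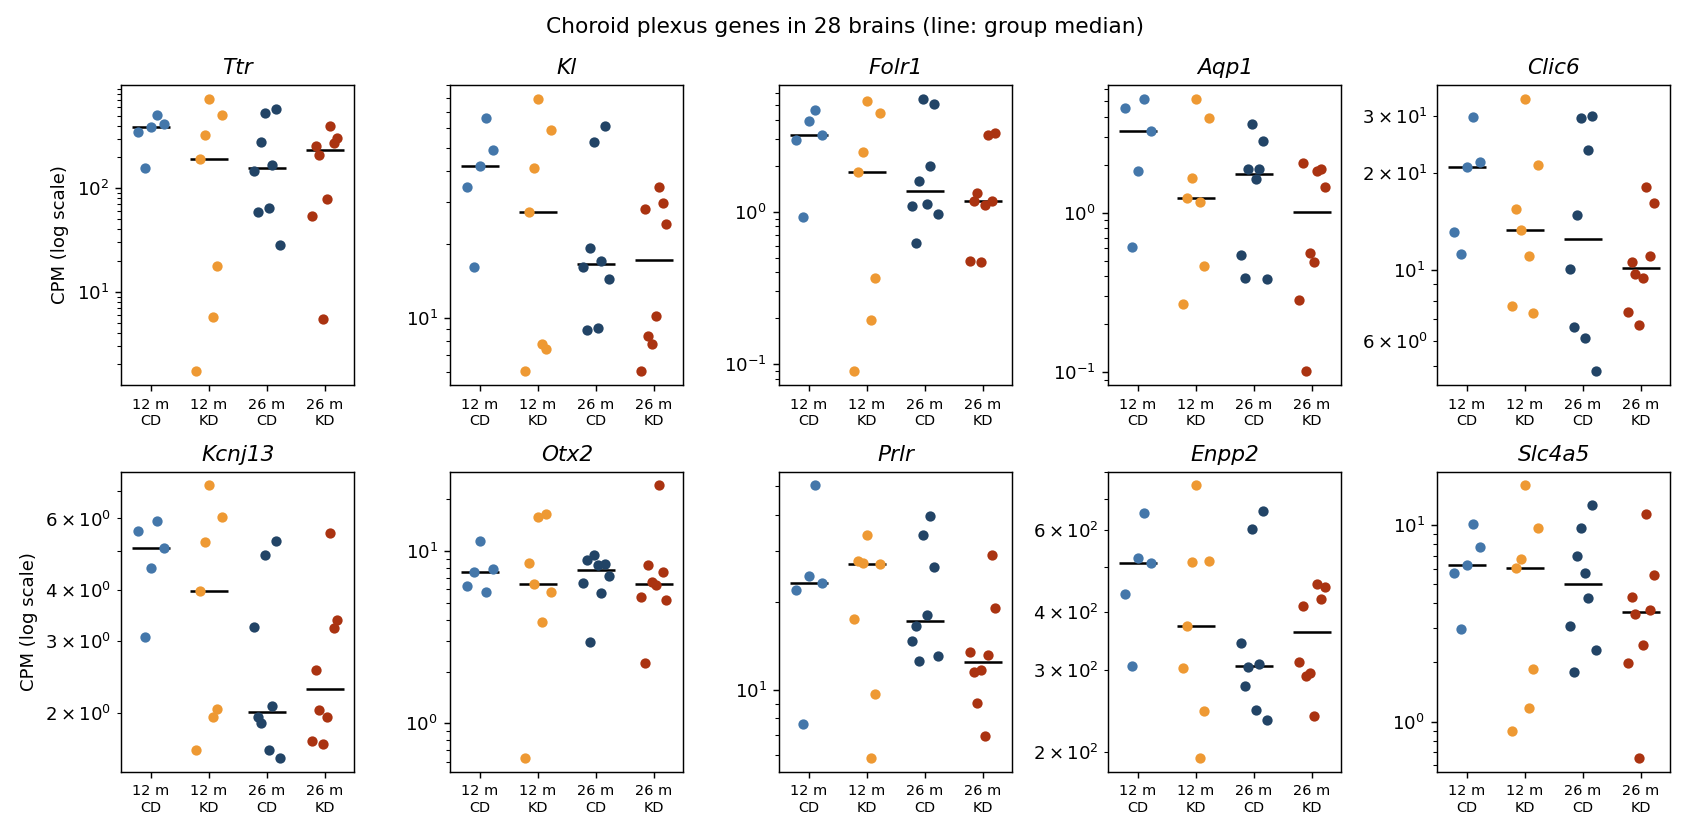
CPM of each of the 10 genes (log scale, vertical axis) by age and diet, 1 point per brain, with a line at the group median (n = 5, 7, 8 and 8). The groups overlap for every gene, and Ttr spans 1.71 to 730 CPM.

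Ttr encodes transthyretin, the carrier of thyroid hormone and of retinol-binding protein in cerebrospinal fluid. In the 5 12-month CD brains Ttr was 155.8, 350.2, 385.2, 419.2 and 510.9 CPM. In the 12-month KD brains it ranged from 1.71 to 730 CPM with a median of 193. These 7 brains were split, since 3 held 1.71, 5.65 and 17.6 CPM and the other 4 held 192.9 or more. In the 26-month CD brains Ttr was 28.4 to 578 CPM (median 157), and in the 26-month KD brains 5.50 to 399 CPM (median 233). The highest and the lowest of all 28 brains were both in the 12-month KD group, and every group overlapped every other. Over the 28 brains the SD of the log2 level, as log2(CPM + 0.5), was 2.20 for Ttr against a median of 0.263 over all tested genes. The biological coefficient of variation, the spread between brains of one group beyond counting error, was 1.04, and 99.6% of tested genes had a lower one.

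Enpp2 encodes autotaxin, the secreted enzyme that makes lysophosphatidic acid, and outside the choroid plexus it is also expressed by oligodendrocytes. It varied least of the 10 genes. The 12-month CD brains held 306, 437, 510, 524 and 654 CPM. The 12-month KD brains held 194 to 750 CPM (median 374), the 26-month CD brains 234 to 659 (median 307) and the 26-month KD brains 239 to 459 (median 363). Its coefficient of variation, 0.344, was still above that of 88.5% of tested genes. All 10 genes were above the median of 0.146 over all tested genes.

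Kl encodes klotho, the co-receptor for the hormone FGF23 that is also shed into cerebrospinal fluid. Kl was 16.2, 34.3, 41.8, 48.7 and 66.4 CPM in the 12-month CD brains. It was 6.01 to 79.5 CPM (median 27.3) in the 12-month KD brains, 8.88 to 61.3 (median 16.6) in the 26-month CD brains and 6.06 to 34.4 (median 17.2) in the 26-month KD brains. As for Ttr, the lowest and the highest brains were 12-month KD mice. The 3 12-month KD brains with the least Ttr also held the least Kl of that group, 6.01, 7.80 and 7.40 CPM.

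Of the transporters and channels, Slc4a5 encodes the sodium bicarbonate cotransporter NBCe2 of the epithelium. Slc4a5 was 2.97, 5.67, 6.29, 7.69 and 10.1 CPM in the 12-month CD brains. It was 0.898 to 15.9 CPM (median 6.04) in the 12-month KD brains, 1.79 to 12.7 (median 4.99) in the 26-month CD brains and 0.653 to 11.3 (median 3.61) in the 26-month KD brains. Clic6, an intracellular chloride channel family member, had narrower ranges, 11.1 to 29.8, 7.31 to 34.0, 4.83 to 30.0 and 6.71 to 18.0 CPM in the same order of groups. Kcnj13, the inward rectifier potassium channel Kir7.1, was 3.07, 4.54, 5.06, 5.58 and 5.92 CPM in the 12-month CD brains. It was 1.62 to 7.24 CPM (median 3.97) in the 12-month KD brains, 1.54 to 5.29 (median 2.01) in the 26-month CD brains and 1.68 to 5.52 (median 2.28) in the 26-month KD brains. The lowest 12-month CD brain for Kcnj13 was above the 26-month CD median, yet the ranges of both ages overlapped.

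Folr1 encodes the folate receptor alpha, which carries folate across the epithelium, and Aqp1 the water channel aquaporin-1 of its apical membrane. Both were covered by few reads. Folr1 counts ran from 1 to 61 per brain and Aqp1 counts from 1 to 64, so their values carry more counting error than those of the other genes. Folr1 was 0.920, 2.93, 3.19, 3.93 and 4.62 CPM in the 12-month CD brains. Its medians in the 12-month KD, 26-month CD and 26-month KD brains were 1.82, 1.36 and 1.17 CPM. Aqp1 was 0.614, 1.83, 3.28, 4.57 and 5.19 CPM in the 12-month CD brains, and its medians in the other groups were 1.24, 1.75 and 1.01 CPM. For both genes the ranges of all 4 groups overlapped.

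Prlr encodes the prolactin receptor, through which the choroid plexus binds and takes up prolactin. Prlr was 7.67, 22.1, 23.4, 24.6 and 50.4 CPM in the 12-month CD brains. It was 5.85 to 34.2 CPM (median 27.0) in the 12-month KD brains, 12.6 to 39.7 (median 17.3) in the 26-month CD brains and 6.96 to 29.1 (median 12.5) in the 26-month KD brains. Otx2 encodes a homeobox transcription factor needed to form and keep the mouse choroid plexus and also used in midbrain and pineal development. Otx2 was 5.76, 6.31, 7.57, 7.88 and 11.4 CPM in the 12-month CD brains. It was 0.628 to 16.4 CPM (median 6.46) in the 12-month KD brains, 2.98 to 9.48 (median 7.75) in the 26-month CD brains and 2.25 to 24.1 (median 6.49) in the 26-month KD brains. Relative to its level, the group medians of Otx2 were close together, while single brains were far from them.

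Many of the genes were high or low in the same brains. In the 12-month CD group the brain lowest in Ttr, replicate 4, was lowest in 9 of the 10 genes, and the highest, replicate 13, was highest in the same number. Otx2 was the exception to both. In the 12-month KD group replicates 2, 11 and 14 were the 3 lowest brains for 9 of the 10 genes, and replicate 10 was the highest for 9. Otx2 was again the exception, being highest in replicate 14. In the 26-month CD group replicates 4 and 7 were the top pair for 8 of the 10 genes, all but Otx2 and Prlr. In the 26-month KD group replicate 14 was the highest brain for 7 of the 10 genes. In each 26-month group 5 of the 10 genes, Ttr included, had the lowest brain of Ttr. The 3 lowest brains of Ttr were those of 4 of the 10 genes on CD and of 5 on KD, Ttr included.

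Correlation with Ttr gave the same picture in numbers (see the plots against Ttr). Levels were compared as log2(CPM + 0.5) over the 28 brains in 9 pairs, with permutation tests of 100000 resamples, two-sided, and Benjamini-Hochberg adjustment over the 9 pairs. Slc4a5 had the highest Pearson r with Ttr (r = 0.901, Spearman rho = 0.939), followed by Folr1 (0.886 and 0.962) and Kl (0.836 and 0.952). Kcnj13 (0.766 and 0.879), Enpp2 (0.760 and 0.901), Clic6 (0.729 and 0.873) and Aqp1 (0.685 and 0.834) came next. For Slc4a5, Folr1, Kl, Kcnj13 and Enpp2 the permutation p of r was 1e-05, the smallest the resampling can give, adjusted p = 1.8e-05. It was 2e-05 for Clic6 and 7e-05 for Aqp1 (adjusted p = 3e-05 and 9e-05). The permutation p of rho was 1e-05 for all 7 (adjusted p = 1.29e-05). Without the 2 brains farthest from the median of Ttr, 12-month KD replicate 2 and 26-month KD replicate 12, r was 0.667 for Aqp1, 0.749 for Clic6, 0.777 for Kcnj13, 0.845 for Kl, 0.873 for Slc4a5, 0.882 for Enpp2 and 0.885 for Folr1.

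Prlr followed Ttr more loosely (r = 0.548, permutation p = 0.00242, adjusted 0.00272, and rho = 0.628, permutation p = 0.00051, adjusted 0.000574), with r = 0.662 without the same 2 brains. Otx2 had the lowest values (r = 0.417, permutation p = 0.0303, adjusted 0.0303). Its rho was 0.269 (permutation p = 0.167, adjusted 0.167) and its r was 0.122 without the 2 brains. Of these, 12-month KD replicate 2 had the lowest Otx2 of all 28 brains (0.628 CPM). The other, 26-month KD replicate 12, held 6.62 CPM of Otx2, near the median of 6.88 over the brains. The slopes were below 1 for every gene. The added 0.5 is near or above the lowest values of Folr1 (0.0898 CPM) and Slc4a5 (0.652 CPM), so their slopes depend in part on it. A doubling of Ttr went with a difference of 0.43 on the log2 scale for Kl, 0.41 for Slc4a5, 0.39 for Folr1, 0.22 for Kcnj13, 0.19 for Prlr and 0.18 for Enpp2.

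**Figure D2:**
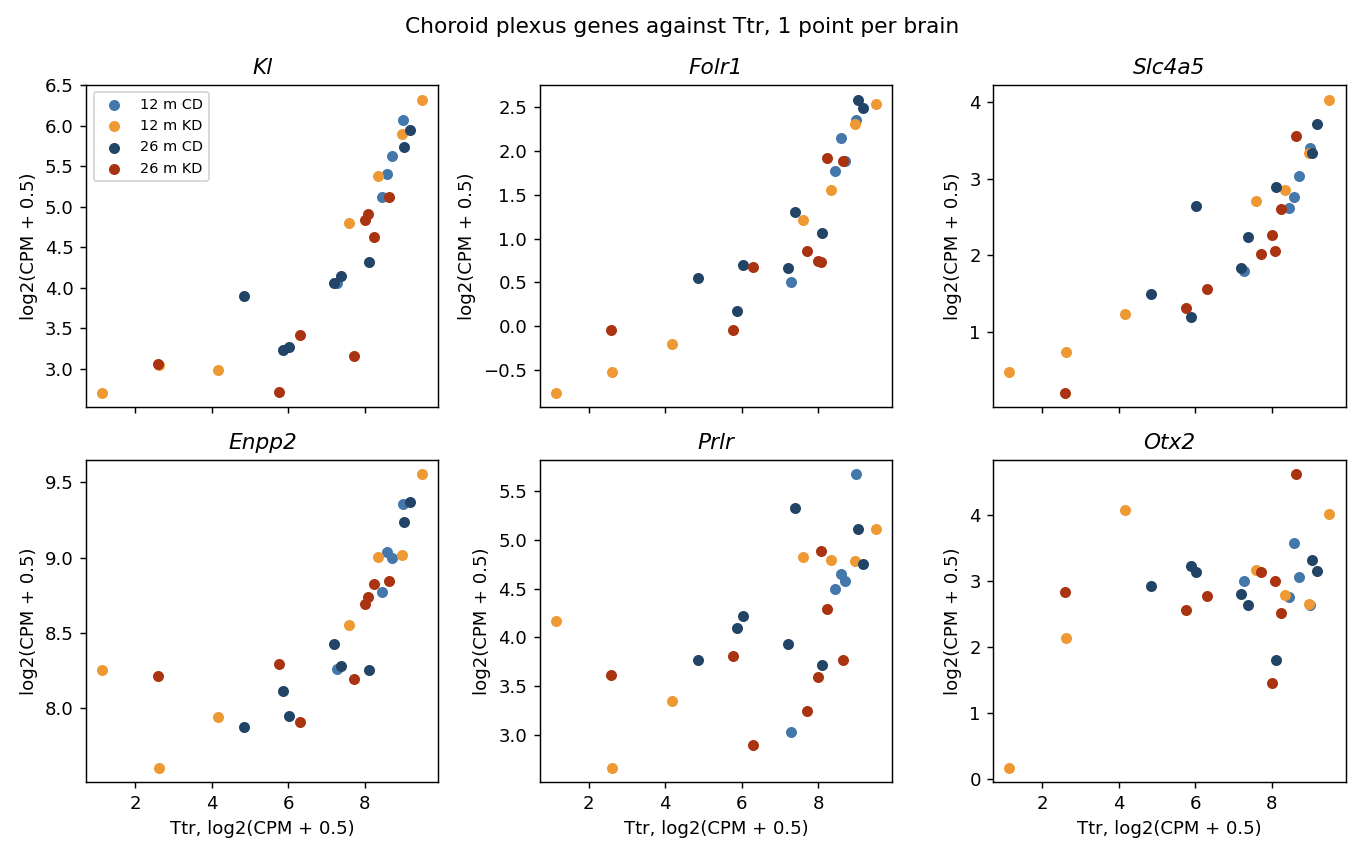
Log2(CPM + 0.5) of 6 of the genes (vertical axes) against that of Ttr (horizontal axes), 1 point per brain, coloured by group (28 brains). Slc4a5, Folr1 and Kl rise along with Ttr in all groups (r = 0.901, 0.886 and 0.836), and Otx2 does so least (r = 0.417).

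The relation was also seen within groups, where age and diet are the same for all mice. In the 12-month KD brains (n = 7) r with Ttr was 0.968 for Kl, 0.978 for Folr1, 0.977 for Kcnj13 and 0.982 for Slc4a5, and 8 of 9 pairs passed by r (exact permutation test, adjusted over 9 pairs) with Otx2 the exception. In the 26-month CD brains (n = 8) 7 of 9 passed, with r between 0.825 for Kcnj13 and 0.937 for Clic6, and not Prlr (0.544) or Otx2 (-0.11). In the 26-month KD brains (n = 8) only Slc4a5 (r = 0.918) and Clic6 (r = 0.808) passed by r, while 6 of 9 passed by rho. Kl and Folr1 had r = 0.719 and 0.762 there, both with an adjusted exact permutation p of 0.0504. The 12-month CD group has 5 brains and was not tested. Over all pairs among the 9 genes other than Otx2, 36 in number, r lay between 0.548 and 0.930 with a median of 0.810, as a description. The 9 pairs with Otx2 lay between 0.122 and 0.417.

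Genes outside the 10 were ranked by Pearson r with the mean z-value of the 10 genes over the 28 brains, a measure of likeness with no test. Pseudogenes, predicted genes, genes with only a clone name and genes without a symbol were left out of this ranking. The 10 most alike were Mfrp (0.965), Cldn2 (0.954), F5 (0.953), Tmem72 (0.944), Sostdc1 (0.941), Kcne2 (0.933), Lbp (0.919), Drc7 (0.919), Prr32 (0.901) and Slc2a12 (0.891). Cldn2 encodes a claudin of the leaky tight junctions of this epithelium, F5 coagulation factor V and Sostdc1 a secreted antagonist of BMP and Wnt signals. Of the 10, 8 are in the list of other choroid plexus genes, and Drc7, a subunit of motile cilia, and Slc2a12, a glucose transporter, are not. F5 ran from 0.808 to 38.1 CPM and Tmem72 from 0.0898 to 21.0 CPM over the brains.

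Of the 29 other choroid plexus genes tested, 24 (82.8%) had r above 0.5 with the score, against 0.870% of all 22069 other tested genes (see the plot of r by list). Their median r was 0.797. The lowest were Vat1l (0.137), Slc29a4 (0.152) and Lmx1a (0.267). Markers of ependymal cells, the ciliated cells that line the ventricles, followed with a median r of 0.465 and 8 of 19 genes above 0.5, up to 0.683 for Ak7. Foxj1, the regulator of motile cilia, had r = 0.445. Meningeal fibroblast markers had a median of 0.254 with 0 of 22 above 0.5. The medians of the other cell types were 0.138 for endothelial, 0.0900 for pituitary and pineal, -0.028 for neuron, -0.048 for myelin, -0.078 for astrocyte and -0.211 for red blood cell markers, with no gene above 0.5. The Hox genes of the hindbrain and cord had a median of -0.179.

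**Figure D3:**
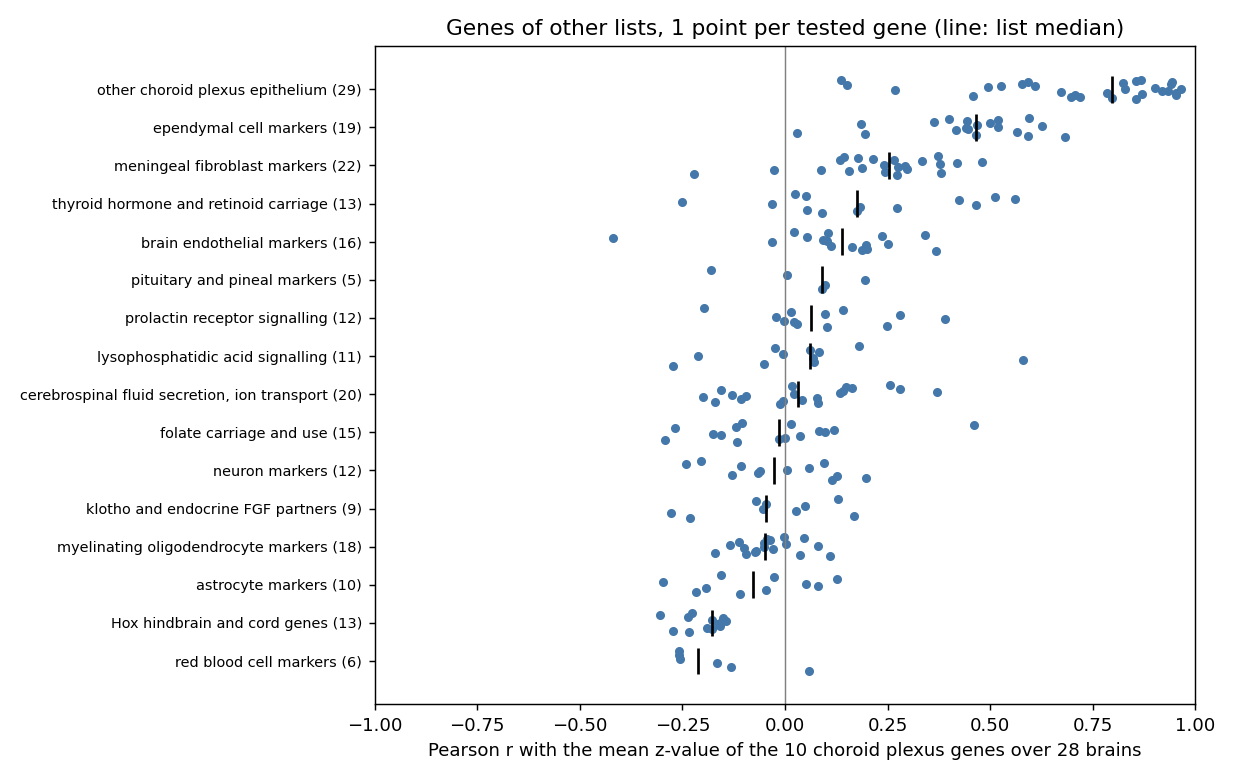
Pearson r (horizontal axis) of every tested gene in 16 lists with the mean z-value of the 10 choroid plexus genes over 28 brains, 1 point per gene and a line at each list's median, with the number of genes in brackets. The other choroid plexus genes sit highest (median 0.797) and the ependymal markers next (median 0.465).

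Genes that work with these 10 but are also expressed elsewhere in the brain did not vary along with them as lists. The median r was 0.032 for 20 ion transport genes of fluid secretion, with the potassium chloride cotransporter Slc12a7 highest at 0.370. It was -0.015 for 15 folate genes, where the reduced folate carrier Slc19a1 was highest (0.461). It was -0.046 for 9 partners of klotho and endocrine FGFs, 0.063 for 12 genes of prolactin receptor signalling and 0.061 for 11 genes of lysophosphatidic acid signalling, where the receptor Lpar4 had 0.579. Of 13 genes of thyroid hormone and retinoid carriage (median 0.175), the thyroxine transporter Slco1c1 (0.560) and the retinol receptor Stra6 (0.513) were above 0.5.

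No gene of the 10 differed between diets or ages at an adjusted p under 0.05. Counts of the 28 brains were tested together with the quasi-likelihood test of edgeR, and 22079 genes entered the Benjamini-Hochberg adjustment. All 10 genes passed the filter on low counts. In the one-week KD 0 of the 10 were called, where 0.00453% of all genes tested were called. In aging 0 of the 10 were called, against 1.26% of all genes, and in the one-year KD 0 of the 10 against 0% of all genes. The difference between both diet effects gave 0 of the 10 against 0%. At an unadjusted p under 0.05 the counts for the 10 genes were 0, 1, 0 and 0 in the same order with edgeR. For all 22079 genes tested they were 585, 2612, 999 and 998 with edgeR. The counts for the 10 genes were 0, 1, 0 and 0 with DESeq2 and 2, 4, 0 and 0 with limma. Neither of the other tools called one of the 10.

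In the one-week KD the values of 9 of the 10 genes were below 0, with a median log2 fold change of -0.29 against -0.001 for all tested genes, of which 50.5% were below 0. Ttr had a log2 fold change of -0.52 (95% interval -2.43 to 1.38), Kl -0.35 (-1.56 to 0.86) and Aqp1 -0.67 (-1.90 to 0.57). Otx2 was the one gene above 0, at 0.07 (-0.90 to 1.05). The adjusted p was 1 for all 10 with edgeR. The mean of Ttr was 364 ± 131 CPM on CD (SD, n = 5) and 254 ± 283 on KD (SD, n = 7), so the difference was within the spread of the KD brains. Summed over the 10 genes, the level was 512 to 1343 CPM on CD and 233 to 1678 CPM on KD. Ttr and Enpp2 make up most of this sum. In the lowest brain, 12-month KD replicate 11, Enpp2 held 194 of the 233 CPM.

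In aging all 10 values were below 0, with a median log2 fold change of -0.43 against -0.002 for all tested genes. The 10 genes vary together, so their common sign does not count as 10 separate results, here or in the one-week and one-year KD. Aqp1 had the lowest value, -0.93 (95% interval -2.14 to 0.28), then Kcnj13 with -0.77 (-1.5 to -0.04), Kl with -0.74 (-1.91 to 0.44) and Ttr with -0.66 (-2.50 to 1.19). Kcnj13 was the single one of the 10 with an unadjusted p under 0.05 (edgeR adjusted p = 0.379), as were 2612 of all 22079 genes tested. The mean of Kcnj13 was 4.83 ± 1.12 CPM at 12 months (SD, n = 5) and 2.81 ± 1.5 at 26 months (SD, n = 8). Enpp2 had -0.39 (-0.96 to 0.19), Slc4a5 -0.18 (-1.34 to 0.98) and Otx2 -0.11 (-1.07 to 0.84). Of all tested genes 278 were called in this comparison. The ages also differed in time on CD, 1 week against the time since 12 months of age. They differed in Gm10800 too, with medians of 0.00104% in the 12-month CD and 0.203% in the 26-month CD brains. Age cannot be told apart from these differences.

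In the one-year KD 9 of the 10 values were below 0, with a median log2 fold change of -0.44 against -0.003 for all tested genes. Prlr had the lowest value, -0.61 (95% interval -1.34 to 0.12, edgeR adjusted p = 0.989), with means of 21.9 ± 10.3 CPM on CD and 14.3 ± 6.98 on KD (SD, n = 8 each). Aqp1 had -0.57 (-1.77 to 0.63), Clic6 -0.50 (-1.25 to 0.25), Kl -0.42 (-1.49 to 0.65) and Ttr -0.23 (-1.87 to 1.42). Enpp2 (-0.04, -0.55 to 0.47) and Kcnj13 (-0.03, -0.71 to 0.64) were near 0, and Otx2 was at 0.19 (-0.64 to 1.03). The one-year and the one-week effects were compared directly, and in this fit the difference was largest in size for Prlr (-0.34, 95% interval -1.45 to 0.77) and Slc4a5 (-0.33, -1.92 to 1.26). The edgeR adjusted p of this difference rounded to 1 for all 10 genes. Aging and the one-year KD share the 26-month CD brains, and aging and the one-week KD share the 12-month CD brains.

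**Figure D4:**
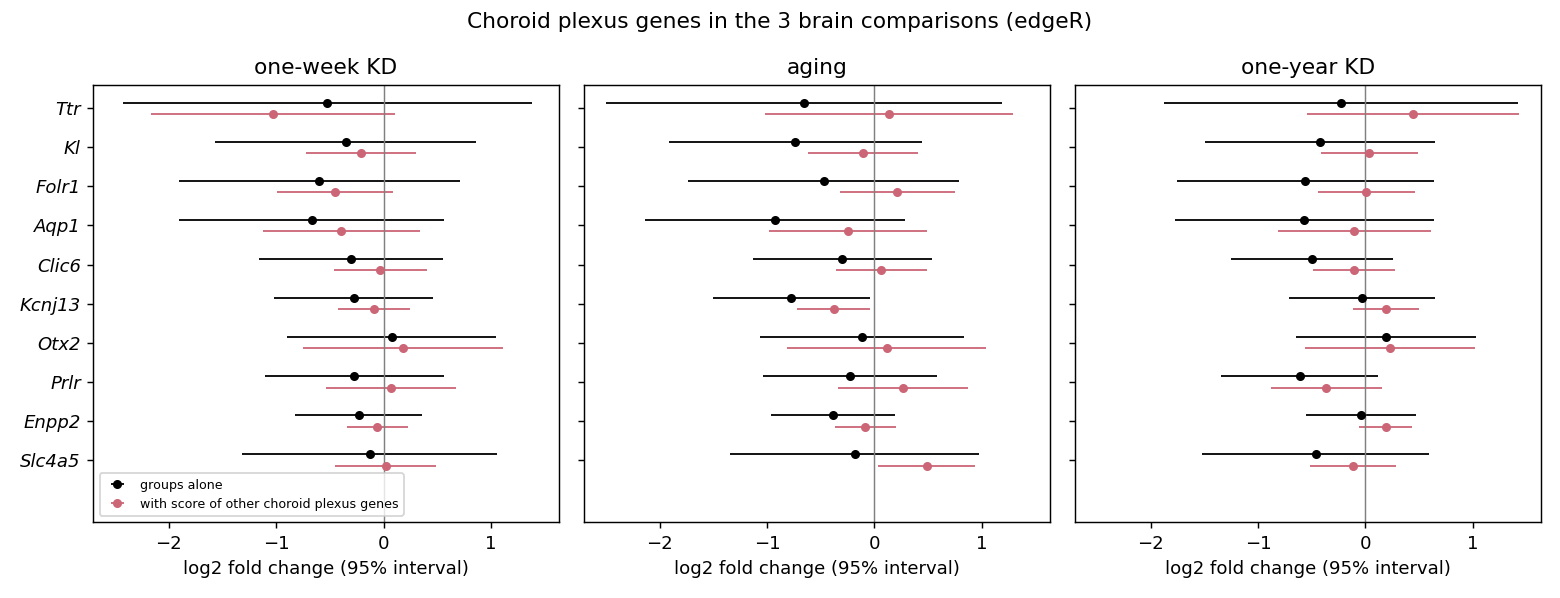
Log2 fold change (horizontal axis) of each gene in the one-week KD, aging and the one-year KD, with bars for the 95% interval of edgeR, from the groups alone (black) and with a score of 29 other choroid plexus genes as a covariate (red). All black bars but that of Kcnj13 in aging (-1.5 to -0.04) span 0, and the red bars are shorter for most genes.

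The intervals were wide. The widest in each comparison was that of Ttr, at 3.81, 3.69 and 3.29 on the log2 scale for the one-week KD, aging and the one-year KD. The narrowest was that of Enpp2, at 1.19, 1.15 and 1.02. Age and diet group accounted for 1.4% (Otx2) to 23.3% (Kcnj13) of the spread of the log2 level over the 28 brains, with 12.6% for Ttr, against a median of 9.92% over all tested genes. Log2 fold changes inside the interval of a gene could not be told apart from its estimate with these brains.

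A fit chosen after seeing the data added the score of the 29 other choroid plexus genes of each brain as a covariate, which compares the 10 genes at an equal level of the rest of the epithelial genes. Again 0 of the 10 were called in any comparison. The standard error of the aging difference was 0.25 for Kl and 0.26 for Folr1, against 0.57 and 0.61 without the covariate, and 0.45 against 0.46 for Otx2. The median log2 fold change of the 10 genes was -0.07 in the one-week KD, 0.09 in aging and 0.02 in the one-year KD. In aging Kcnj13 had -0.38 (95% interval -0.72 to -0.04, edgeR adjusted p = 0.348). Slc4a5 had 0.48 (0.03 to 0.94, edgeR adjusted p = 0.379). Both had an unadjusted p under 0.05, and the share of all genes under it was not counted in this fit. In the one-week KD Ttr had -1.03 (-2.17 to 0.11, edgeR adjusted p = 1). The difference of both diet effects for Ttr was 1.47 (-0.04 to 2.99, edgeR adjusted p = 1) with the covariate and 0.29 (-2.23 to 2.82) without it.

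The lists were also counted in each comparison. In aging the median log2 fold change of the other choroid plexus genes was -0.32, with 22 of 29 below 0, and 1 of 29 fell, against 0.258% of all genes tested. This was Slc13a4, a sulfate transporter (-1.53, SE 0.29, edgeR adjusted p = 0.00356). Igfbp2 (-0.80, adjusted p = 0.124) and Msx1 (-0.85, adjusted p = 0.375) did not pass. In the one-week KD and the one-year KD 0 of 29 were called, with medians of -0.26 and -0.21. Prr32 had the smallest p in the former (-0.84, adjusted p = 1) and the angiotensin converting enzyme Ace in the latter (-0.44, adjusted p = 0.989).

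Markers of other cells near the ventricles and on the brain surface moved as follows. Of 22 meningeal fibroblast markers 14 fell in aging, against the same 0.258% of all genes, among them Fmod, an extracellular matrix proteoglycan (-1.92, adjusted p = 1.45e-05), Slc22a6, an organic anion transporter (-1.88, adjusted p = 0.000809) and Gjb2, a gap junction protein (-1.07, adjusted p = 0.00182). Their summed level was 451 to 804 CPM in 12-month CD brains and 219 to 458 in 26-month CD brains. None of the 22 was called in the diet comparisons. None of 19 ependymal markers was called in any comparison, with medians of -0.43, -0.17 and -0.48 in the one-week KD, aging and the one-year KD. The summed ependymal level was 75.0 to 94.98, 42.7 to 133, 49.0 to 122 and 42.0 to 142 CPM in 12-month CD, 12-month KD, 26-month CD and 26-month KD brains. The part of meningeal and ependymal tissue in the values of the 10 genes, or of the other choroid plexus genes such as Slc13a4, was not tested.

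In aging, endothelial Ly6c1 (0.83) and the glucose transporter Slc2a1 (0.65), the astrocyte filament gene Gfap (0.88) and the myelin gene Hapln2 (0.99) rose, 2 of 16, 1 of 10 and 1 of 18 genes of their lists against 1% of all genes tested, with adjusted p of 0.0132, 0.0383, 0.0320 and 0.00535. Alb, encoding albumin, fell (-3.71, adjusted p = 0.0196), as 1 of 13 genes of thyroid hormone and retinoid carriage, at a median of 0.779 CPM over the brains. No gene of the lists for neurons, red blood cells, pituitary and pineal, Hox genes, ion transport, folate, klotho partners, prolactin signalling or lysophosphatidic acid signalling was called in any comparison. The summed level of the 13 tested Hox genes differed between brains of one group. It ran from 0 to 65.3 CPM in the 12-month CD brains and from 0.390 to 112 in the 12-month KD brains. It was 0.903 to 33.9 CPM in the 26-month CD and 0.757 to 24.96 in the 26-month KD brains. The part of the brain region sampled in the values of the 10 genes was not tested.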

How the data were processed

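Whole brain RNA of 28 mice was sequenced after removal of ribosomal RNA. The authors trimmed reads with Trimmomatic, aligned them to GRCm38 with STAR and counted with RSEM, with versions not given in the sources used here. The deposited table holds raw counts, whole numbers for each gene, with no normalization by the authors. RSEM estimates counts that need not be whole, and how the deposited whole numbers were obtained is not given in the sources used here. Symbols came from GENCODE vM21. No library was left out, and no column belonged to another series.

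The tests ran in edgeR 4.0.16 under R 4.3.3 (filterByExpr, TMM, glmQLFit and glmQLFTest), all 28 brains and 4 groups in one fit, without covariates because the labels give no batch. Calls were made at an adjusted p under 0.05. CPM were scaled by TMM. Correlations used log2(CPM + 0.5) in Python 3.11.15 with scipy 1.17.1, pandas 2.3.3 and numpy 2.4.6, and figures were drawn with matplotlib 3.10.9. The steps were tested on simulated counts. Alternatives used limma 3.58.1 and DESeq2 1.42.0, with which the authors tested, other scaling and filters, the 2 compared groups alone, a replicate block and each brain left out. Brains of a group are separate mice.

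The 10 genes and the 16 gene lists were chosen with earlier results of these data known. Named beside them are the 3 genes of a list with the smallest p in a comparison where the list is described, and the 10 genes most like them. Further genes of the lists named for their r (Vat1l, Slc29a4, Lmx1a, Ak7, Foxj1, Slc12a7, Slc19a1, Lpar4, Slco1c1, Stra6) were picked after their values were seen. Promoter sequences and start sites came from RefSeq. The 16 livers of the series were used for one check of levels only.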

Additional observations from a re-analysis of the deposited data

Results flagged for a closer look

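A brain far from the rest of its group was sought for each of the 10 genes in each of the 4 groups, 40 groups of values. The gap to the next brain was divided by the range of the group, on CPM. Chance flags about 1 in 20 if the values have a normal distribution, which was not checked. The search was not run on the log2 scale. Such a brain was found 3 times, each time in 26-month KD replicate 14. Otx2 was 24.1 CPM there, against 8.30 in the next brain and 2.25 in the lowest. Kcnj13 was 5.52 CPM against 3.38 and 1.68, and Slc4a5 was 11.3 CPM against 5.58 and 0.653. The 3 values come from one brain and are not independent.

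Several of the genes had signal in the 16 livers, which no comparison here uses. Their median level there was 2011 CPM for Ttr, 242 for Prlr, 94.8 for Enpp2 and 90.3 for Aqp1. The medians were 1.73 CPM for Kcnj13, 1.47 for Slc4a5, 1.08 for Folr1 and 0.563 for Clic6. Each median count was above the limit of 3 counts that a count of 0 allows, while Kl and Otx2 were at or under it, with Otx2 at 0 in 9 of 16 livers. Liver and brain libraries are different tissues of different composition, and the levels were not compared by a test.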

How the results depend on the processing

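None of the 10 genes was called in any of 38 alternative settings in which it was tested, where the lowest adjusted p was 0.139. With at least 10 counts in every brain, Folr1, Aqp1, Otx2 and Slc4a5 did not pass the filter and could not be called. Some settings, such as the replicate block, covered only some of the comparisons. None of the 40 group levels moved beyond its SD. Of the 40 log2 fold changes 19 kept their direction in every alternative that tested them. With limma the value was -0.39 for Otx2 in the one-week KD and -0.29 in the one-year KD, and the difference of both diet effects was 0.58 for Kl, 0.34 for Clic6 and 0.27 for Slc4a5. With the score of other choroid plexus genes as a covariate, chosen after seeing the data, the one-week KD gave 0.068 for Prlr and 0.020 for Slc4a5. The same covariate gave in aging 0.14 for Ttr, 0.21 for Folr1, 0.062 for Clic6, 0.11 for Otx2, 0.27 for Prlr and 0.48 for Slc4a5. In the one-year KD it gave 0.44 for Ttr, 0.037 for Kl, 0.0070 for Folr1, 0.19 for Kcnj13 and 0.19 for Enpp2, and 0.25 for Kl in the difference of both effects. Without brains above 0.5% Gm10800, also chosen after seeing the data, Otx2 was -0.30 in the one-year KD and the difference was -0.094 for Folr1 and -0.38 for Otx2. The cause of these changes was not tested.

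With each brain left out in turn, one-week KD values ranged from -0.19 to 0.28 for Otx2, from -0.50 to 0.13 for Prlr and from -0.59 to 0.086 for Slc4a5. Aging values ranged from -0.21 to 0.066 for Otx2, from -0.45 to 0.17 for Prlr and from -0.45 to 0.027 for Slc4a5. One-year KD values ranged from -0.12 to 0.13 for Enpp2, from -0.25 to 0.16 for Kcnj13, from -0.27 to 0.34 for Otx2 and from -0.45 to 0.12 for Ttr. The difference of both diet effects ranged from -0.18 to 0.55 for Aqp1, from -0.41 to 0.12 for Clic6, from -0.23 to 0.46 for Folr1, from -0.31 to 0.33 for Kl, from -0.35 to 0.38 for Otx2 and from -0.74 to 0.13 for Slc4a5.

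Over all genes, aging gave 278 calls, 499 with DESeq2, 175 with at least 10 counts in every brain, 121 with the 2 groups alone and 147 to 309 with a brain left out. The 4 lowest were without 12-month CD replicate 1 (157), 4 (152), 7 (150) or 16 (147). The one-week KD gave 1 call and 0 under total counts alone, no filter on low counts or the covariate, with 0 to 1 when a brain was left out. The difference of both diet effects gave 0 calls, 2 with DESeq2, and 0 to 1 with a brain left out, the 1 being without 26-month CD replicate 3. Among the 9 correlations with Ttr, 9 passed over all brains and 2 within the 26-month KD brains, and r of Otx2 was -0.11 within the 26-month CD brains.

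Replicates 1, 4 and 7 of the CD groups share a number across ages but are different mice, and their deviations correlated at 0.20, -0.25 and -0.08. With this number as a replicate block, aging gave 20 calls over all genes, none of them among the 10, and values of 0.0094 for Folr1, 0.063 for Clic6, 0.17 for Otx2 and 0.11 for Slc4a5. Folr1 and Aqp1 are limited by counts of 1 to 64 per brain.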
